A study of Mus musculus with 6 samples.

Results

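Core B lineage transcription factors are described here as 10 genes, Ebf1, Pax5, Foxo1, Bach2, Lef1, Sox4, Myb, Bcl11a, Runx1 and Mef2c, chosen by symbol for their roles in B cell commitment and in the step between pro-B and pre-B cells. Each matched 1 row of the 23793 in the authors' deposited table, and the authors had tested each of the 10 among 10657 tested genes. Messenger RNA came from i660BM cells, a pro-B cell line (an early B cell precursor line) of strain C57BL/6 that carries a doxycycline-inducible PU.1 and grows with interleukin 7. The groups were 3 libraries of induced cells, given 70 ng/ml doxycycline for 48 h, and 3 libraries of non-induced cells of the same line. PU.1, encoded by Spi1, is an ETS family transcription factor of myeloid and B cells, and the comparison asked which genes differ when it is induced in pro-B cells. The line is the only one used, separate cultures are not named in the labels for the 3 libraries of each group, and no library had doxycycline without the inducible PU.1, so the drug and the factor cannot be told apart.

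EBF1 and PAX5 set B lineage identity: EBF1 opens the B cell gene programme, and PAX5 holds it and represses genes of other lineages. FOXO1 acts with them and is restrained by PI3 kinase signalling. RUNX1, MYB, BCL11A, SOX4 and LEF1 act in early precursors on survival, growth and rearrangement, while BACH2 and MEF2C act around the pre-B cell checkpoint and in later B cells.

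The authors gave each group 1 FPKM value per gene (fragments relative to transcript length and library depth), with no value per library and thus no standard deviation. Called, rose and fell are used of tested genes whose deposited q-value (Benjamini-Hochberg over the tested genes) was under 0.05. There were 2023 such rises (19.0% of 10657) and 1721 falls (16.1%). Steps between the lowest values corresponded to about 122000000 fragments in the induced group and about 118000000 in the non-induced group, so that 1 FPKM stood for about 122 and 118 fragments per kb of transcript. Spi1 itself was at 246 FPKM in induced cells and 36.0 FPKM in non-induced cells. Of 14 pro-B cell markers 1 was under 0.2 FPKM in induced cells and 3 in non-induced cells, and 7 of 13 tested rose and 0 fell. Cd79a was at 646 and 596 FPKM and Igll1 at 1083 and 538 FPKM in induced and non-induced cells. The receptor gene Kit was untested and listed at 0 in both groups. The recombinase gene Rag2 was at 1.602 FPKM in induced and 0.00853 FPKM in non-induced cells and was not called, and Rag1 was also close to 0 in non-induced cells. The summed level of 8 T cell markers was 0.258 FPKM in induced and 0.354 FPKM in non-induced cells. That of 6 NK cell, 4 erythroid and 6 stromal markers was at most 0.316 FPKM in induced and 0.377 FPKM in non-induced cells for any of these lists. Of 10 myeloid markers in the table, 5 (Cebpa, Elane, Ctsg, S100a8 and S100a9) had a listed level of 0 with and without induction. The summed level of the 10 was 16.5 FPKM in induced cells, of which Lyz2 made up 15.2 FPKM, and 0.378 FPKM in non-induced cells. Of these markers 2 had been tested and both rose, while 8 were untested. They were Lyz2 (0.361 FPKM in non-induced cells) and Cd14 (0.995 FPKM in induced cells and listed at 0 in non-induced cells). Both were low in non-induced cells and reached the test mainly through induced cells, so their direction was largely set by that filter. Of 4 plasma cell markers, with a summed level of 121 FPKM in induced and 182 FPKM in non-induced cells, 3 fell. These were Irf4 (62.9 FPKM in induced and 100.5 FPKM in non-induced cells), Xbp1 (54.9 and 77.5 FPKM) and Sdc1. The part of myeloid and plasma cell gene expression in the results below was not tested.

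Of the 10 factors 8 were higher in induced cells, 0 were lower, and 2, Sox4 and Lef1, were not called. The rises were moderate, between 1.30-fold for Pax5 and 1.68-fold for Bach2. The summed level of the 10 genes was 771 FPKM in induced cells and 577 FPKM in non-induced cells. Their median log2 change, induced over non-induced, was 0.42 in the authors' deposited table, against -0.0075 over 10628 tested genes with a finite value. Among tested genes with a mean of at least 10 FPKM, the range in which all 10 lie, 17.3% rose and 15.1% fell. In bulk RNA a higher level per cell and a larger share of cells with the transcript cannot be told apart.

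**Figure D1:**
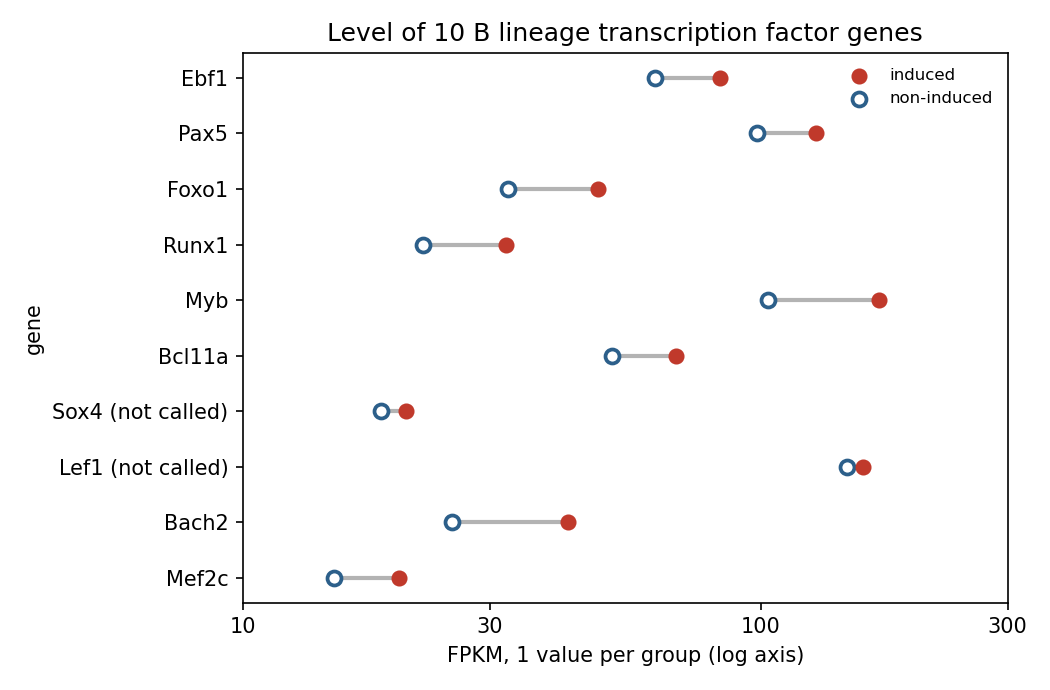
Level of each of the 10 genes in induced cells (filled) and non-induced cells (open), as 1 FPKM value per group on a log axis. Each filled point lies to the right of its open point, with the widest gap for Bach2 (42.5 and 25.3 FPKM in induced and non-induced cells) and the narrowest for Lef1 (157 and 147 FPKM).

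The commitment factors Ebf1, Pax5 and Foxo1 rose together. Ebf1 encodes the factor that starts B cell specification and lies on the plus strand of chromosome 11 (mm10, 44617317 to 45008091 in the GENCODE M21 annotation). It was at 83.4 FPKM in induced cells and 62.6 FPKM in non-induced cells, 0.42 higher on the log2 scale (implied error 0.14) in the authors' deposited table. The implied error is a standard error, taken as the log2 change divided by the authors' test statistic, a relation that the table leaves unstated. For Ebf1 the deposited p-value, 5e-05, was smaller than a two-sided normal one from the same statistic, 0.0041. The implied error may thus be too large. Mouse Ebf1 is known to be transcribed from more than one promoter, and RefSeq (GRCm38.p6, the same build as mm10) gave windows around 2 starts that lie 2128 bases apart. The windows shown here and further on run from 250 bases before a start to 50 bases from it, 5′ to 3′ on the gene's strand. They are printed for both Ebf1 starts, the largest rises, Foxo1 and an uncalled gene. Capitals mark GGAA, the core of the motif that ETS factors such as PU.1 recognise, read on either strand (TTCC on the other). The upstream Ebf1 window is chr11:44617850-44618149 and the downstream one chr11:44619978-44620277, both on the plus strand. The annotated gene start at 44617317 has no window, and whether these 2 starts are the known promoters was not tested.
Ebf1 upstream start: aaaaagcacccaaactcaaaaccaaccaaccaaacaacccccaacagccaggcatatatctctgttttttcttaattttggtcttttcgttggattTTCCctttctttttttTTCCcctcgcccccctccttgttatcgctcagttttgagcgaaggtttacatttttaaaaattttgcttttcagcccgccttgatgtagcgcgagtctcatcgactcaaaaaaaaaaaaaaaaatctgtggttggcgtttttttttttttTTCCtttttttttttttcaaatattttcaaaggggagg
Ebf1 downstream start: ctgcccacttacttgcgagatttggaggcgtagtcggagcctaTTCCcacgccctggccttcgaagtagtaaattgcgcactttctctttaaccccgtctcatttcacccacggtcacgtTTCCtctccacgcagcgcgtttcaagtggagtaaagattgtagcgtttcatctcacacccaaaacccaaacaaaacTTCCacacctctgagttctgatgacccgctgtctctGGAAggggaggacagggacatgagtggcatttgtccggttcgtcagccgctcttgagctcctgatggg
The upstream window held 3 matches to GGAA and none to the longer form GGAAGT. The downstream one held 4 matches to GGAA, 1 of which was part of GGAAGT, read as ACTTCC on the printed strand, and another part of GAGGAA, read there as TTCCTC. The FPKM is a sum over the gene and does not say which start was used.

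Pax5, the guardian of B cell identity, lies on the minus strand of chromosome 4 (44524757 to 44710487). It was at 128 FPKM in induced cells and 98.6 FPKM in non-induced cells, 0.38 higher on the log2 scale (implied error 0.13) in the authors' deposited table, the smallest of the 8 rises. Its locus in the table is shared with the transcript 5730488B01Rik, which was at 5.63 FPKM in induced and 5.73 FPKM in non-induced cells and was not called. Foxo1 encodes a forkhead factor that switches on the recombinase genes and Il7r, and lies on the plus strand of chromosome 3 (52268336 to 52353221). It was at 48.6 FPKM in induced cells and 32.5 FPKM in non-induced cells, 0.58 higher on the log2 scale (implied error 0.14) in the authors' deposited table. Foxo1 thus had the largest relative difference of these 3 genes and the lowest level in both groups. Its promoter window (chr3:52268087-52268386, plus strand) is shown because it was the only one of the 17 windows of these genes that held CCCNNGGG, the core of the palindrome that EBF1 recognises.
Foxo1: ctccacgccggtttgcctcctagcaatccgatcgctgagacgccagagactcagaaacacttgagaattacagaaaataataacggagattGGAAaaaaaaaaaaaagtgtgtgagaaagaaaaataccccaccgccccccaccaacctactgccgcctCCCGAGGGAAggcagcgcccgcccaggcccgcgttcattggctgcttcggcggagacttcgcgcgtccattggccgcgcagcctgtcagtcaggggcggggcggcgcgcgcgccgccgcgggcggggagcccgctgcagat
Capitals here mark GGAA and CCCNNGGG, which overlap at the second GGAA. Of all 32851 RefSeq promoter windows, 13.7% held CCCNNGGG.

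Among the factors of early precursors, Myb and Runx1 had the larger rises and Bcl11a a smaller one, while Sox4 and Lef1 were not called. Myb, the regulator of progenitor growth and survival, lies on the minus strand of chromosome 10 (21124935 to 21160984). It was at 169 FPKM in induced cells and 104 FPKM in non-induced cells, 0.71 higher on the log2 scale (implied error 0.15) in the authors' deposited table. In FPKM this was the largest difference of the 10, at 65.8 FPKM, and Myb had the highest level of the 10 in induced cells. Its promoter window (chr10:21160935-21161234, minus strand) held 1 match to GGAA, the fewest of the 17.
Myb: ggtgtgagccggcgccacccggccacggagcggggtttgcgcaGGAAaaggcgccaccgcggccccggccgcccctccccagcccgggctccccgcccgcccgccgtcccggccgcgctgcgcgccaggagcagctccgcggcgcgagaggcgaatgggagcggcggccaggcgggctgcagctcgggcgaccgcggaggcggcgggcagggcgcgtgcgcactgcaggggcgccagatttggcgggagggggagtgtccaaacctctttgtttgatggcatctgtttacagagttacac
Runx1 encodes the DNA-binding subunit of core binding factor and lies on the minus strand of chromosome 16 (92601466 to 92826149). It was at 32.2 FPKM in induced cells and 22.2 FPKM in non-induced cells, 0.54 higher on the log2 scale (implied error 0.14) in the authors' deposited table. Bcl11a, a zinc finger factor needed for the earliest B cell precursors, lies on the plus strand of chromosome 11 (24078056 to 24174123). It was at 68.5 FPKM in induced cells and 51.7 FPKM in non-induced cells, 0.41 higher on the log2 scale (implied error 0.17) in the authors' deposited table. The Bcl11a call was lost with two-sided normal p-values from the statistic the authors deposited (adjusted p = 0.0909, against 0.000287 to 0.000321 under the other alternatives). By those p-values 7 of the 10 genes were called higher, against 956 of 10628 genes in the table.

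Sox4, an HMG box factor for precursor survival and the start of rearrangement, lies on the minus strand of chromosome 13 (28948919 to 28953713). It was at 20.7 FPKM in induced cells and 18.5 FPKM in non-induced cells (q = 0.141, log2 difference 0.16 and implied error 0.12 in the authors' deposited table). Lef1 encodes the HMG box partner of beta-catenin in pro-B and pre-B cells and lies on the plus strand of chromosome 3 (131110471 to 131224356). It was at 157 FPKM in induced cells and 147 FPKM in non-induced cells (q = 0.415, log2 difference 0.10 and implied error 0.15 in the authors' deposited table). With 95% intervals built from the implied standard errors, the log2 change was between -0.08 and 0.40 for Sox4 and between -0.19 and 0.39 for Lef1. Built this way, the intervals include no difference and also rises the size of that of Pax5. The deposited p-values (0.0627 for Sox4 and 0.259 for Lef1) were smaller than two-sided normal ones from the same statistic (0.192 and 0.504). The intervals may thus be too wide, and whether either gene rose as much as Pax5 was not tested. The Sox4 window (chr13:28953650-28953949, minus strand) is shown as that of an uncalled gene, and it held 7 matches to GGAA, 1 of them within GAGGAA. The most matches of the 17 windows, 9, were in the first window of Mef2c, a called gene. The first window of Lef1, also uncalled, held 2. Whether matches go with the calls was not tested.
Sox4: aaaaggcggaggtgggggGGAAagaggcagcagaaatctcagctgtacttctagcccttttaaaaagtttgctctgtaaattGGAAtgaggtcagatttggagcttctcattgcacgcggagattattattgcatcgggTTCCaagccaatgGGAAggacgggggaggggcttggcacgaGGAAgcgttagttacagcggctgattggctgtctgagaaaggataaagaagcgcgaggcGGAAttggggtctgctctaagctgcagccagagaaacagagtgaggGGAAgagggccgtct

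Bach2 and Mef2c, which act around the pre-B cell checkpoint, both rose. Bach2 encodes a repressor that restrains plasma cell fate and takes part in the pre-B cell receptor checkpoint, and lies on the plus strand of chromosome 4 (32238804 to 32586108). It was at 42.5 FPKM in induced cells and 25.3 FPKM in non-induced cells, 0.75 higher on the log2 scale (implied error 0.15) in the authors' deposited table, the largest relative rise of the 10. Its locus in the table is shared with Bach2os, which was not tested and was listed at 0.0209 FPKM in induced and 0.00542 FPKM in non-induced cells. Mef2c, a MADS box factor of B cell precursors and activated B cells, lies on the plus strand of chromosome 13 (83504034 to 83667080). It was at 20.0 FPKM in induced cells and 15.0 FPKM in non-induced cells, 0.42 higher on the log2 scale (implied error 0.15) in the authors' deposited table. Mef2c had the lowest level of the 10 in both groups. The Bach2 window (chr4:32417185-32417484, plus strand) is shown as that of the largest relative rise, and it held 4 matches to GGAA. It is the only Bach2 window and lies inside the annotated gene, whose start at 32238804 has no window, so the matches describe this start alone.
Bach2: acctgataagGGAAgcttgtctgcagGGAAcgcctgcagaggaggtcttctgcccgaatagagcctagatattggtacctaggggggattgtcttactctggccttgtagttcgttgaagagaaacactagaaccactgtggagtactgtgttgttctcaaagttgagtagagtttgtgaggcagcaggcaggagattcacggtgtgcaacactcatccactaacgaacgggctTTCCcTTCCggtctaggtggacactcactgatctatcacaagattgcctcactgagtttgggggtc

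The 8 called genes shared the smallest p-value that the deposited test gave, 5e-05, which 1855 tested genes had, so their q-value was 0.000287 for each and does not rank them. The rises that were at least 1.5-fold were those of Bach2 and Myb (1.64-fold), while 6.34% of all tested genes rose by as much. Foxo1 lay just under that limit, at a log2 change of 0.58 in the authors' deposited table. In the ranking of all tested genes by log2 change, Bach2 stood above 95.2% and Pax5, the lowest of the called members, above 87.3% of them. Lef1 stood above 66.5% and Sox4 above 73.7%.

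**Figure D2:**
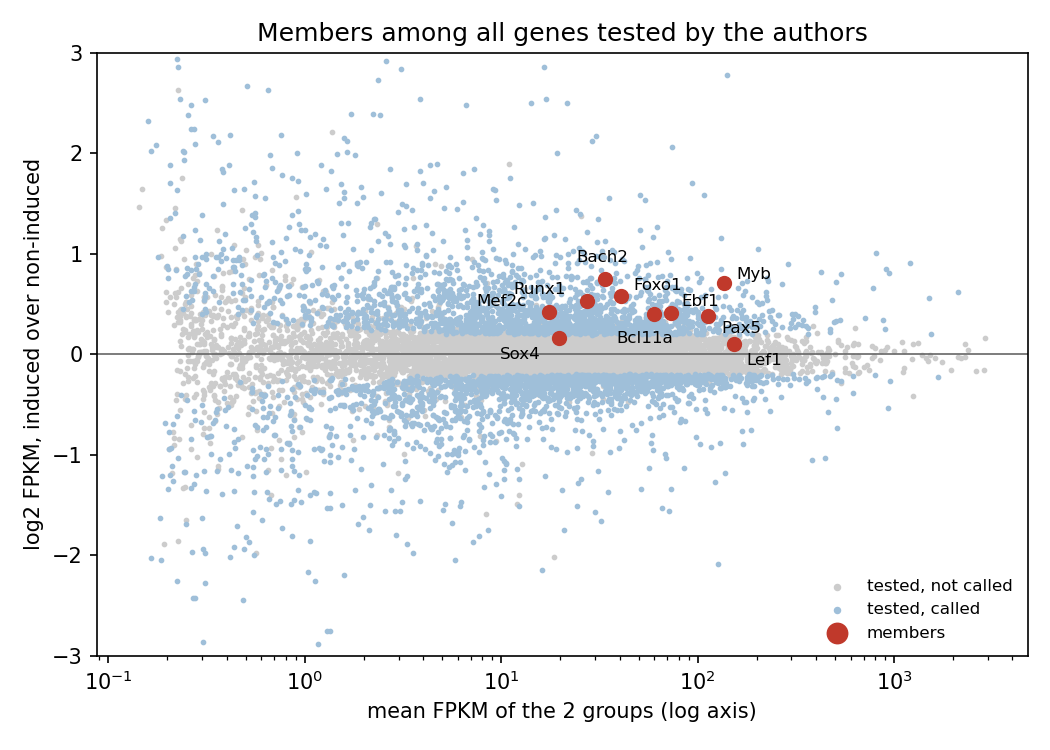
Log2 FPKM, induced over non-induced, against the mean FPKM of both groups (log axis) for 10628 tested genes, with the 10 factors in red. The 8 called factors lie between 0.38 and 0.75, inside the broad band of called genes, and 78 tested genes lie beyond the vertical axis limit of 3.

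The order of levels was nearly the same in both groups. In induced cells it ran from Myb (169 FPKM) and Lef1 (157 FPKM) through Pax5, Ebf1, Bcl11a, Foxo1, Bach2 and Runx1 to Sox4 (20.7 FPKM) and Mef2c (20.0 FPKM). In non-induced cells Lef1 (147 FPKM) stood above Myb (104 FPKM), and the other 8 genes kept their ranks. The highest of the 10 levels was above 95.8% of tested genes in induced cells and above 94.9% in non-induced cells. The lowest was above 56.2% and 48.5% of tested genes in induced and non-induced cells. Levels carry no spread within a group in the file, so whether neighbours in this order differ was not tested.

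All 17 promoter windows of the 10 genes held GGAA, as did 96.0% of all windows. The 17 are not separate sequences, since the first 2 Lef1 windows, with starts 26 bases apart, largely overlap. GGAAGT was found in windows of 3 of the 10 genes (3 of 17 windows, 17.6%, against 23.8% of all), namely Ebf1, Lef1 and Mef2c. GAGGAA was found in 6 of the 17 windows (35.3%, against 28.3% of all), and the 8-base form GAGGAAGT in 0 of the 17 (3.20% of all). TGTGGT, the RUNX core, was found in 1 window each of Runx1 (2 matches) and Ebf1, against 16.8% of all windows. GTAAACA, a forkhead motif, was found in the Myb window alone, against 3.65% of all windows. Motifs were read on both strands, each of these 3 longer ETS forms contains GGAA, and the motifs were chosen with the expression values known. A match describes letters in these windows only.

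For 5 of the 10 genes the relatives chosen here were all untested and listed at or near 0, and the other 5 had at least 1 tested relative. The 22 relatives were a fixed choice, 9 of them had been tested, 3 of these rose, 0 fell and 6 were not called. They do not cover whole families in each case. For Pax5 they were Pax2 and Pax8 and for Sox4 they were Sox11 and Sox12, without the other PAX and SOX genes. The 5 without a tested relative were Ebf1, Pax5, Sox4, Bcl11a and Runx1. There the member made up over 99.9% of the FPKM summed over itself and its chosen relatives in both groups. This holds as far as low values in untested rows can be taken as measured. Lef1 made up 97.3% in induced and 98.6% in non-induced cells. The 13 untested relatives were each under 0.2 FPKM in both groups, and among them were Tcf7 and Bcl11b, factors of T cell precursors.

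Where relatives were expressed, the member listed here had the larger log2 change in the FOXO, MYB, BACH and MEF2 families and the smaller one in the LEF/TCF family. Foxo3 was at 7.61 FPKM in induced and 7.21 FPKM in non-induced cells and Foxo4 at 13.0 and 11.9 FPKM, neither called, so that Foxo1 made up 70.2% of the family sum in induced and 63.0% in non-induced cells. Mybl2, a cell cycle relative of Myb, was at 36.7 FPKM in induced and 35.5 FPKM in non-induced cells and was not called. Mybl1 rose, at 5.57 FPKM in induced and 4.67 FPKM in non-induced cells (log2 0.26, q = 0.0191 in the authors' deposited table). Bach1, the broadly expressed relative of Bach2, rose by less than Bach2, at 7.93 FPKM in induced and 6.84 FPKM in non-induced cells (log2 0.21, q = 0.0411 in the authors' deposited table). The calls of Mybl1 and Bach1 were both lost at q under 0.01. In the MEF2 family Mef2d had the highest level, 89.0 FPKM in induced and 82.8 FPKM in non-induced cells. Mef2a was at 20.6 and 19.2 FPKM and Mef2b at 4.12 and 4.27 FPKM in induced and non-induced cells. None of these 3 was called, and Mef2c made up 15.0% of the family sum in induced and 12.3% in non-induced cells.

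Tcf7l2, the TCF4 relative of Lef1, had the largest log2 change among members and tested relatives. It rose to 4.41 FPKM in induced cells, against 2.10 FPKM in non-induced cells (q = 0.000287, log2 difference 1.07 and implied error 0.17 in the authors' deposited table). Its level stayed far below that of Lef1 in both groups. The difference between the changes of a member and a relative was not tested.

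**Figure D3:**
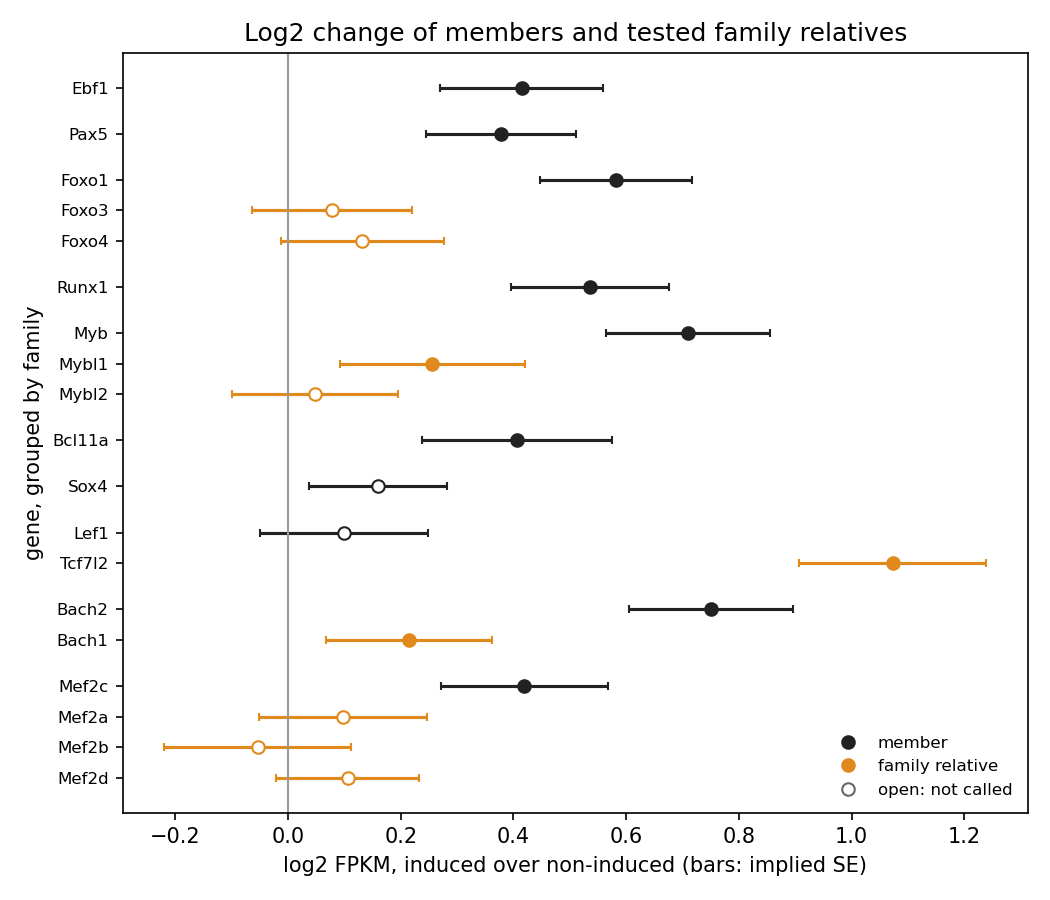
Log2 FPKM, induced over non-induced, of the 10 members (black) and the 9 tested relatives (orange) by family, with bars of 1 implied standard error and open points for genes not called. Foxo1, Myb, Bach2 and Mef2c lie to the right of their relatives, while Tcf7l2 (1.07) lies to the right of Lef1 (0.10).

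**Figure D4:**
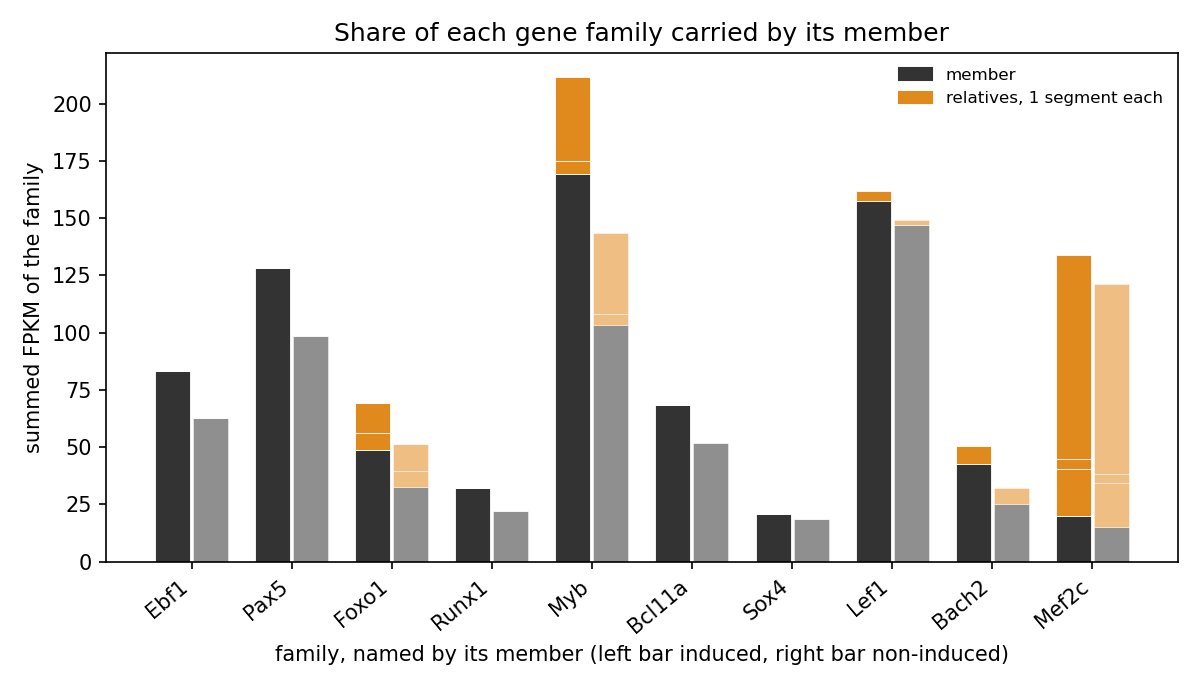
Summed FPKM of each member and its chosen relatives, induced bar left and paler non-induced bar right, with the member in black or grey and each relative as an orange segment. The member fills the bar for Ebf1, Pax5, Runx1, Bcl11a and Sox4, and Mef2c is 15.0% of its bar in induced and 12.3% in non-induced cells.

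Cofactors of the 10 genes were called higher in part. Of 15 listed partners 14 had been tested, 6 rose (19.0% of all tested genes did), 1 fell (16.1%) and 7 were not called, with a median log2 change of 0.16 in the authors' deposited table. Cbfb, which encodes the subunit that RUNX1 needs for stable DNA binding, was at 172 FPKM in induced and 132 FPKM in non-induced cells, a 1.30-fold rise. Ep300, a histone acetyltransferase bound by MYB, was at 17.6 FPKM in induced and 13.6 FPKM in non-induced cells. Hdac9, a histone deacetylase that binds MEF2 factors, rose to 2.39 FPKM in induced cells, against 1.29 FPKM in non-induced cells. The Groucho corepressors, which PAX5 and LEF1 recruit, were split: Tle4 rose (16.2 FPKM in induced and 12.5 FPKM in non-induced cells), Tle1 rose (4.06 and 3.27 FPKM) and Tle3 fell (26.9 FPKM in induced and 34.9 FPKM in non-induced cells).

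Genes described as activated by EBF1 or PAX5 rose more often than tested genes at large. Of 16 listed 15 had been tested, 11 rose (19.0% of all tested genes did) and 2 fell (16.1%), with a median log2 change of 0.51 in the authors' deposited table. The surrogate light chain gene Igll1 was at 1083 FPKM in induced and 538 FPKM in non-induced cells. Vpreb3, a VpreB-like gene of B cell precursors, was at 1566 FPKM in induced and 831 FPKM in non-induced cells, and the ectoenzyme gene Bst1 at 169 and 94.2 FPKM. Fcrla, a B cell Fc receptor-like gene, rose to 4.09 FPKM in induced cells, against 0.616 FPKM in non-induced cells. Nedd9, a docking protein gene, fell (49.0 FPKM in induced and 67.8 FPKM in non-induced cells), as did Cr2, the complement receptor of mature B cells, at a low level (0.290 and 0.424 FPKM). Cd79a, a classical EBF1 target, was among the 2 not called, and it is named here after its values were seen. The list was drawn from general knowledge with earlier results of these data known, so its count is a description.

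Genes described as repressed by PAX5 were called in both directions. Of 8 listed 6 had been tested, 2 rose (19.0% of all tested genes did) and 3 fell (16.1%), a small number to set against these shares. Ccr2, a chemokine receptor of myeloid cells, fell to 0.278 FPKM in induced cells, against 2.05 FPKM in non-induced cells. Cd28, the T cell costimulatory receptor, fell to 14.2 FPKM in induced cells, against 34.6 FPKM in non-induced cells, and Sdc1, a plasma cell proteoglycan, was at 2.31 and 3.00 FPKM. Flt3, a cytokine receptor of early progenitors, rose to 0.759 FPKM in induced cells, against 0.308 FPKM in non-induced cells. Notch1, the receptor for T lineage choice, was at 6.07 FPKM in induced and 5.24 FPKM in non-induced cells (q = 0.0376 in the authors' deposited table). Csf1r, the macrophage growth factor receptor, was untested, at 0.192 FPKM in induced cells and listed at 0 in non-induced cells.

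Of 12 listed FOXO1 targets 10 had been tested, and 7 rose (19.0% of all tested genes did) and 2 fell (16.1%). The interleukin 7 receptor gene Il7r was at 142 FPKM in induced and 43.5 FPKM in non-induced cells, and Cdkn1b, the cell cycle inhibitor p27, at 42.0 and 21.4 FPKM. The recombinase gene Rag1 was at 0.434 FPKM in induced and 0.00348 FPKM in non-induced cells, where it was close to 0 (q = 0.0102 in the authors' deposited table). Ccr7, a chemokine receptor gene, fell to 50.9 FPKM in induced cells, against 71.6 FPKM in non-induced cells, and the stress gene Sesn1 was at 23.6 and 28.2 FPKM. A gene close to 0 in either group reached the test mainly if it was higher in the other. A gene close to 0 without induction, such as Rag1, could thus count mainly as a rise.

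For the BACH and LEF/TCF factors the listed targets gave fewer tested genes. Of 7 genes described as repressed by BACH factors 4 had been tested, 3 rose (19.0% of all tested genes did) and 0 fell (16.1%). The ferritin heavy chain gene Fth1 was at 953 FPKM in induced and 605 FPKM in non-induced cells, and the glutathione synthesis genes Gclm (31.6 and 25.0 FPKM) and Gclc (67.4 and 57.1 FPKM) rose by less. Prdm1, the plasma cell regulator that BACH2 represses, was the 1 not called, at 0.597 FPKM in induced and 0.519 FPKM in non-induced cells. Of 10 LEF/TCF targets 4 had been tested, and 1 rose and 2 fell, against the same shares of all tested genes. Lgr5, a stem cell receptor gene that shares its locus with another row, was at 35.2 FPKM in induced and 13.0 FPKM in non-induced cells. Myc fell to 125 FPKM in induced cells, against 212 FPKM in non-induced cells, and Znrf3, a ligase that dampens Wnt signalling, to 2.14 FPKM, against 2.99 FPKM. The Wnt target Axin2 was untested and listed at 0 in both groups, which can be a failed estimate.

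**Figure D5:**
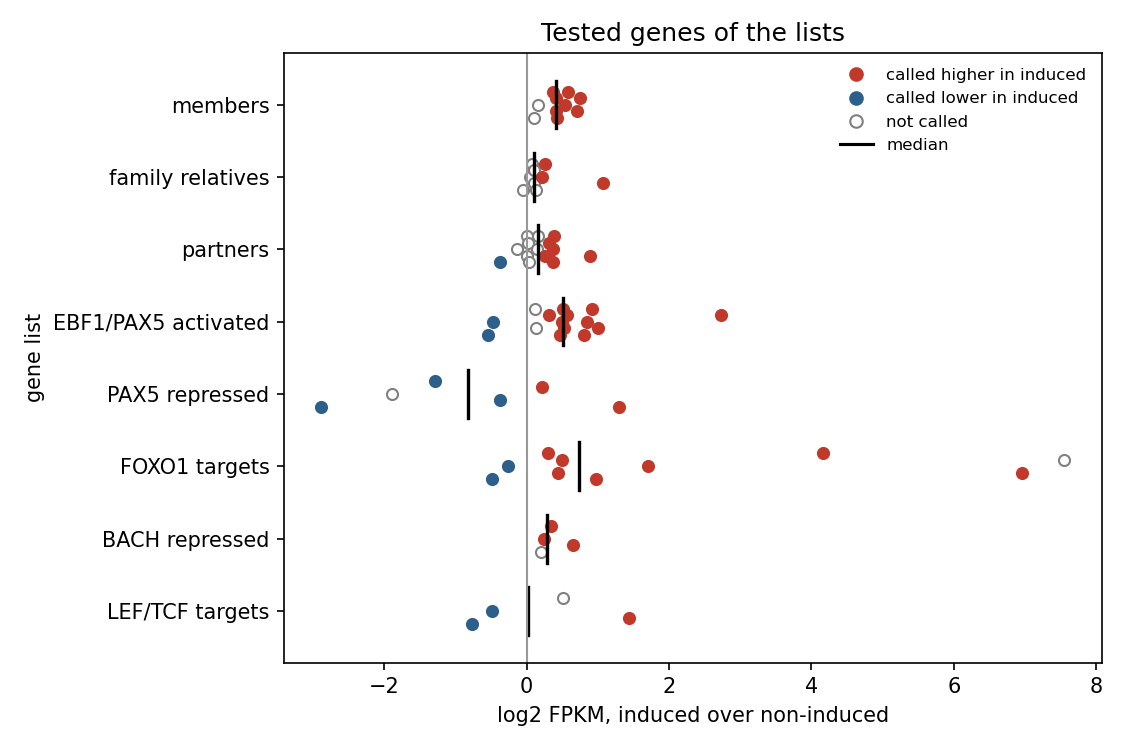
Log2 FPKM, induced over non-induced, of each tested gene with a finite value in 8 lists, filled red where called higher, filled blue where called lower and open where not called, with a bar at the median. The members lie between 0.10 and 0.75, a narrower range than the EBF1/PAX5 activated genes (-0.55 to 2.73) and the PAX5 repressed genes (-2.89 to 1.30).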

How the data were processed

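Stranded mRNA libraries were sequenced from 3 induced and 3 non-induced samples, per the labels' protocols. The submitters' processing notes name Trim Galore 0.2.8.1, TopHat2 2.0.9, Cufflinks, Cuffdiff 2.1.1 and build mm10. The annotation was not given in the sources used here, nor was the strand setting. In the Cuffdiff table that the authors deposited, each group has 1 FPKM value per gene. Its other deposited columns are the log2 fold change, the test statistic (a score), the p-value and the q-value. The authors had tested 10657 of 23793 rows; values at or near 0 in the 13135 untested rows can be failed estimates. Recomputing the Benjamini-Hochberg adjustment gave the deposited q-values to within 5.15e-07. Without values per library no test was made here. The deposited p-values rest on these libraries alone, and the spread between libraries may be technical.

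Depth was estimated from the steps of FPKM times length over genes with 1 annotated GENCODE M21 transcript of at least 1000 bases. Of low values 64.8% in induced and 70.2% in non-induced cells lay within 0.15 of a whole number of fragments, against 30% for evenly spread values, so the depth is approximate and that of single libraries is unknown. Of 10082 tested symbols found once in the annotation, 99.9% had an overlapping locus. Promoter windows (17 for 10 of 10 genes) are from RefSeq, GRCm38.p6. The members, lists and motifs were chosen with earlier results of these data known. All members are named, as are tested relatives, and in each list the called genes with the largest log2 change, up to 4 per direction; some genes that this rule names are not reported here. Computations used Python 3.11.15, pandas 2.3.3 and scipy 1.17.1; the adjustment was tested on simulated data.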

Additional observations from a re-analysis of the deposited data

How the results depend on the processing

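No paired analysis was possible because the table holds 1 value per group, and for the same reason leaving out single libraries was not run. The count of members called higher stayed at 6 to 8 under each alternative but a 1.5-fold minimum, under which it was 2; leaving out shared loci removed Pax5 and Bach2, and normal p-values ended the call of Bcl11a.

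The other counts, higher and then lower, are given only where either of them moved by more than 1.5-fold. At a 1.5-fold minimum they were 676 and 410 for all tested genes, 1 and 0 for relatives and 1 and 0 for partners. EBF1 and PAX5 activated genes had 5 and 0, PAX5 repressed genes 1 and 2, and FOXO1 targets 4 and 0. BACH repressed genes had 1 and 0 and LEF/TCF targets 1 and 1. Plasma cell markers had 0 and 1 (3 of 4 tested were lower without the minimum). With two-sided normal p-values from the deposited statistic they were 956 and 656 for all tested genes, 1 and 0 for relatives and 2 and 1 for partners. By these p-values EBF1 and PAX5 activated genes had 9 and 1, PAX5 repressed genes 1 and 2, and FOXO1 targets 7 and 1. BACH repressed genes had 1 and 0 by them, and myeloid markers 1 and 0 (2 higher before). At q under 0.01 relatives had 1 and 0, PAX5 repressed genes 1 and 3, and FOXO1 targets 6 and 1. At a mean of at least 1 FPKM, EBF1 and PAX5 activated genes had 11 and 1, PAX5 repressed genes 1 and 3, and myeloid markers 1 and 0. At a mean of at least 5 FPKM the same lists had 10 and 1, 1 and 1, and 1 and 0, and LEF/TCF targets 1 and 1. Without shared loci LEF/TCF targets had 0 and 2 and PAX5 repressed genes 1 and 3. A filter removes genes by construction; the cause of the other changes was not tested.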
